A study of Mus musculus with 12 samples.

Results

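The genes described here write, copy and remove DNA methylation: the methyltransferase genes Dnmt1, Dnmt3a, Dnmt3b and Dnmt3l, the dioxygenase genes Tet1, Tet2 and Tet3, and the genes Uhrf1 and Tdg, whose products guide the copying and take part in the removal. They were chosen by symbol, by a rule that uses no measured value but was written with earlier results of these data known, and all 9 had a row among the 24098 genes of the deposited table. Each was followed through 12 mRNA-Seq libraries of mouse cells on the way from fibroblasts to pluripotency, 1 library for each condition. All 9 reached an FPKM of 1 in at least 1 library, the filter that 14178 of the 24098 genes passed.

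D0 was mouse embryonic fibroblasts (MEFs) at day 0, from E13.5 embryos with a GFP reporter placed behind the stop codon of Oct4 (Pou5f1). The D3 to D16 libraries came from these MEFs after infection with pMXs retroviruses carrying Oct4, Sox2, Klf4 and c-Myc (OSKM), grown in FF medium, which holds knockout serum replacement, LIF, ascorbic acid, bFGF, CHIR99021 and N-2, with no feeder layer and no passage. D3 was unsorted cells of day 3. On days 6 and 9 cells were sorted on Thy-1, a surface protein of fibroblasts, into D6T- and D9T- (without it) and D6T+ and D9T+ (with it), and on days 12 and 16 into fractions by SSEA-1, a carbohydrate that mouse pluripotent cells carry on their surface: D12S+ and D16S+ (with it) and D12S- and D16S- (without it). The study treats D6T-, D9T-, D12S+ and D16S+ as the successful route and the other 4 sorted fractions as the unsuccessful one. The mESCs were embryonic stem cells of the line ESD3. The labels give FF medium for iPSCs and mESCs as well, whereas the methods of the study name other media, with serum or serum replacement, for these cells. For reprogramming the methods list those media beside FF medium, and for MEFs they name a medium with serum. All libraries of D3 to D16 thus share the viral OSKM treatment. The iPSCs were induced pluripotent stem cells, which the study describes as the product of this reprogramming of MEFs with OSKM retroviruses. The mESCs are an established line of another origin than the MEFs.

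Methyl groups in mammalian DNA sit mostly on the cytosine of CG pairs. DNMT3A and DNMT3B set them on unmethylated sites, with DNMT3L, which has no activity of its own, as their helper in germ cells and early embryos. DNMT1 copies the pattern onto the new strand at the replication fork, where UHRF1 recognises the hemimethylated site and brings DNMT1 to it. The TET enzymes oxidise the methyl group, using ascorbic acid as one of their helpers, and TDG cuts out the most oxidised forms so that base excision repair can restore cytosine.

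To show what the members carry at their start sites, promoter windows of 300 bases (250 before the start and 50 from it on) were taken from RefSeq (GRCm38.p6), which held 16 windows for 9 of 9 members. Shown first are Dnmt1 (chr9:20952574-20952873, minus strand) and Uhrf1 (chr17:56304063-56304362, plus strand), the pair whose levels moved together most closely with the replication genes. Capitals mark words of the type bound by E2F, the factors of S-phase genes.

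Dnmt1: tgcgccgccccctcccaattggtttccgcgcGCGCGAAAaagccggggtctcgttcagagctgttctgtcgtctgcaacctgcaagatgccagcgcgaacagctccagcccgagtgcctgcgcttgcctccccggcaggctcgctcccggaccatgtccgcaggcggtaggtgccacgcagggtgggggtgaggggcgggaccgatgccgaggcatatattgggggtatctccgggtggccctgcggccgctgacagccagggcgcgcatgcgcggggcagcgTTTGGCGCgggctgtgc
Uhrf1: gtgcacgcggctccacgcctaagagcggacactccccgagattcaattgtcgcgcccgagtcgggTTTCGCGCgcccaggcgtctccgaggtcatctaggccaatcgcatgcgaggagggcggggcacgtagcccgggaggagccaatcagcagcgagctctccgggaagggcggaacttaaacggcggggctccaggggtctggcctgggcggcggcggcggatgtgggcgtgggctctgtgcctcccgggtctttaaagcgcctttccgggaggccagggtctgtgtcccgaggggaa

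The words searched on both strands were TTTCCCGC, TTTCGCGC, TTTGCCGC and TTTGGCGC, each of which also contains a CG pair. In Dnmt1 the words began 219 bases before and 33 bases after the start base, and in Uhrf1 185 bases before it. Dnmt1 and Uhrf1 were the 2 of 9 members with such a word in a window. The window printed for each gene is its richest in CG pairs. The other windows of Dnmt1 and Uhrf1 held 0 such words. Of all 32851 windows 2.26% held one, which is a share per window. No share per gene was computed to set beside the count of members. The octamer ATGCAAAT, the core word bound by Oct4, searched likewise, lay in 0 members and in 1.74% of all windows.

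The next windows belong to Dnmt3b (chr2:153649199-153649498, plus strand), Tet1 (chr10:62887275-62887574, minus strand) and Dnmt3l (chr10:78042037-78042336, plus strand), which had the widest range of levels over the libraries. Here capitals mark CG pairs, the site on which the members themselves act.

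Dnmt3b: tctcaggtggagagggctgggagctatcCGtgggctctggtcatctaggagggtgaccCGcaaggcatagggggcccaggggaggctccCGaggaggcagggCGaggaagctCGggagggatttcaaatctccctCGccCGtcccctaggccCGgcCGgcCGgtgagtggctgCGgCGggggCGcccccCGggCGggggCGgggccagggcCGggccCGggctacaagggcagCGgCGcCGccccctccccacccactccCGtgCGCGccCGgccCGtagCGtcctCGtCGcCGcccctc
Tet1: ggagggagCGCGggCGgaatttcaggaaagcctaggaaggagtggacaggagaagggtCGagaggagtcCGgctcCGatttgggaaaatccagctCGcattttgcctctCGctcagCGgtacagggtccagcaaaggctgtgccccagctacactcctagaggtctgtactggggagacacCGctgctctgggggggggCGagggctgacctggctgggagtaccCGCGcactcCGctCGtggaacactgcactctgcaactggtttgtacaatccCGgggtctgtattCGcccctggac
Dnmt3l: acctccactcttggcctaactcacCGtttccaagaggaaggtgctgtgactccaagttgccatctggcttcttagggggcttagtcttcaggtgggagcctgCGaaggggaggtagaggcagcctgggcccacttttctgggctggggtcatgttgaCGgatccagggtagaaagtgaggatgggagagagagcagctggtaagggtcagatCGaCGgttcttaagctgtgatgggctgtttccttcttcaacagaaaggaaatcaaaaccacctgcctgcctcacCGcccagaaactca

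The Dnmt3b window held 30 CG pairs, the Tet1 window 17 and the Dnmt3l window 6, beside a median of 7 over all windows. The other windows of Dnmt3l held 4 and 3 pairs, so none of its windows passed the median. Tet2 held 57, more than 99.8% of all windows, and the richest window of Dnmt3a held 47. These matches describe letters only, since methylation was not analysed here.

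Levels are given as FPKM, fragments per length and per library size, which allows levels of different genes to be set side by side. Differences are given as the first library minus the second on the log2(FPKM + 1) scale, which understates differences of low genes, and a difference of at least 1 (2-fold) was counted. With 1 library per condition no difference has a replicate check, and no test was made. The interval deposited with each FPKM had a median half-width of 103% of the value over the 108 member values, and 65 of the 108 intervals reached down to 0. The intervals of neighbouring libraries overlapped for every member. Of all 14178 genes, at most 19 (in D3 over D0) had intervals apart in such a step. The orders of levels below are therefore orders of single values. Sequencing depth relative to D0, estimated from the steps of low genes, lay between 0.967 (D9T+) and 1.56 (D6T-). The markers went with the labels: the summed FPKM of 10 fibroblast markers was 7880 in D0 and 39.5 in D16S+, and that of 10 pluripotency markers was 2.29 in D0 and 4923 in D16S+. D12S- and D16S- held 101 and 148 FPKM of the pluripotency markers, so they were not without them. In bulk libraries, fewer cells of a type and less RNA per cell cannot be told apart.

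**Figure D1:**
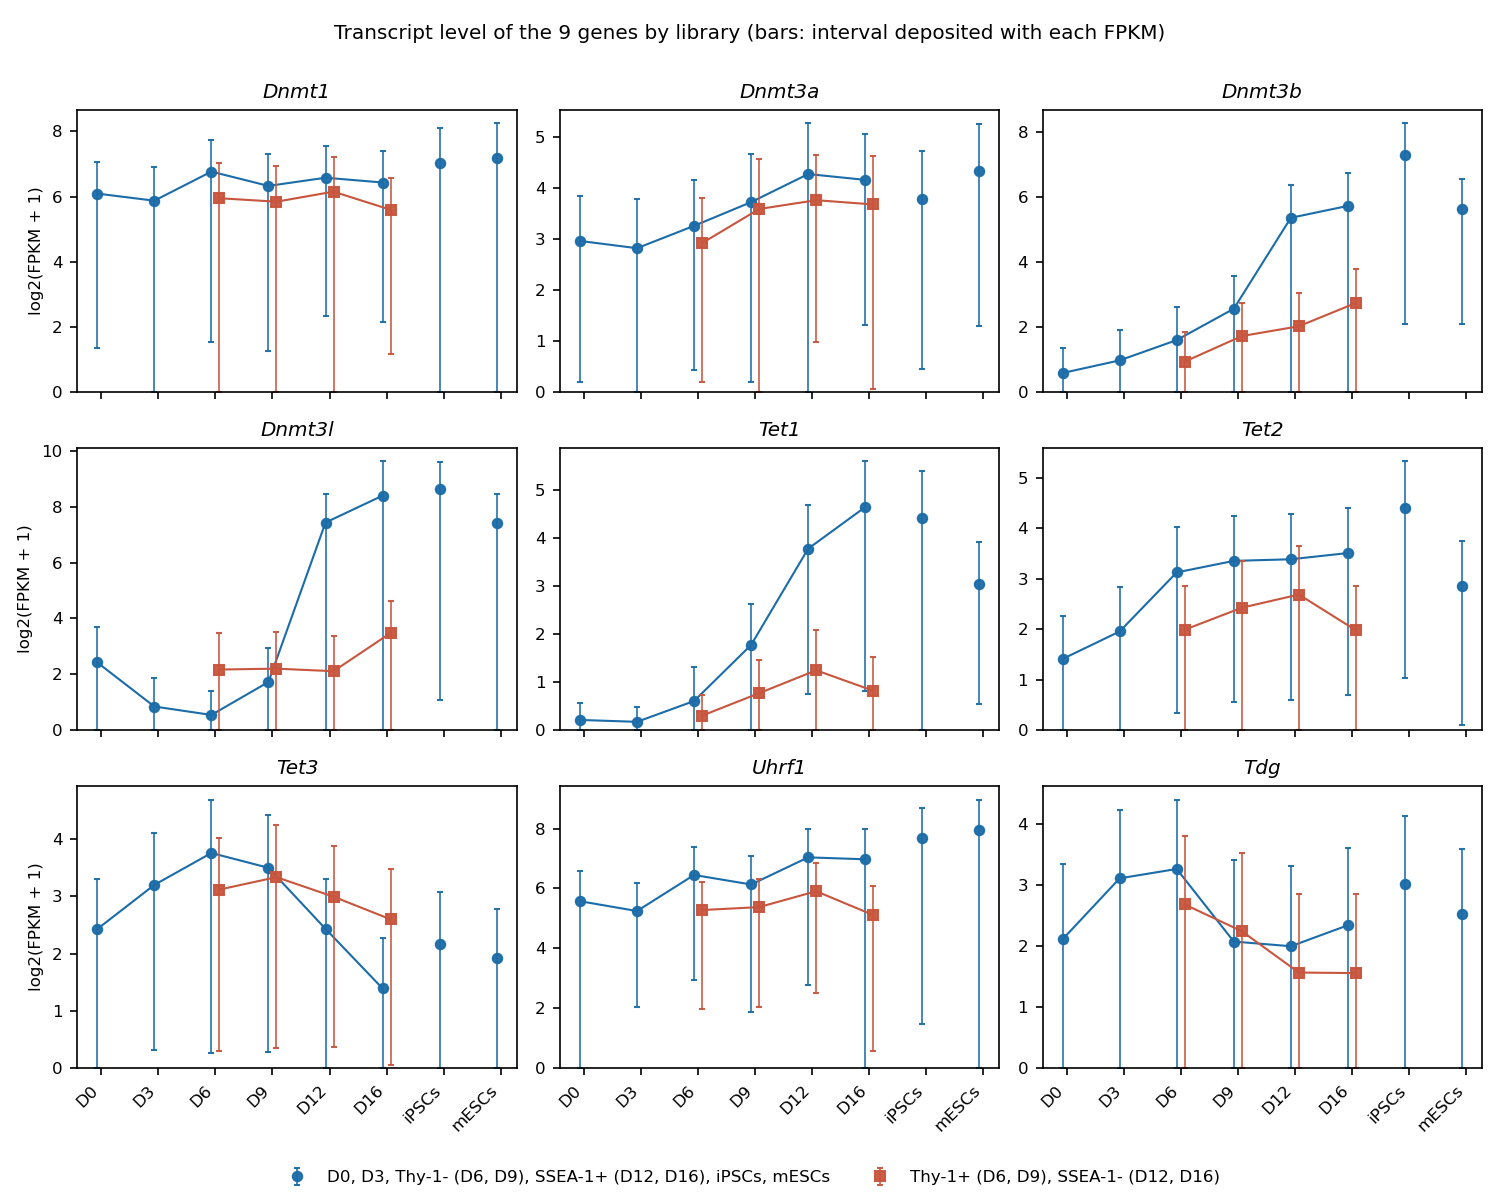
Level of each of the 9 genes, as log2(FPKM + 1), by library. Circles are D0, D3, the Thy-1- and SSEA-1+ fractions, iPSCs and mESCs, squares are the Thy-1+ and SSEA-1- fractions, and bars are the intervals deposited with each FPKM. Dnmt3b, Dnmt3l and Tet1 stood far apart between the routes on days 12 and 16, Tet3 lay lower on the SSEA-1+ side, and most bars reach close to 0.

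Dnmt3l, the helper of the de novo enzymes, had the widest range of the members, 861-fold between D6T- and iPSCs. Its FPKM was 4.36 in D0, 0.795 in D3, 0.456 in D6T-, 2.30 in D9T-, 172 in D12S+, 336 in D16S+, 393 in iPSCs and 168 in mESCs. On the unsuccessful route it was 3.49 in D6T+, 3.59 in D9T+, 3.31 in D12S- and 10.1 in D16S-. Dnmt3l was thus low but not at 0 in fibroblasts, lowest in D3 and D6T-, and over 100 FPKM in the 4 libraries with SSEA-1+ or established pluripotent cells. From D9T- to D12S+ the difference was 5.71, the highest of all 14178 genes, and against D12S- of the same day it was 5.32, again the highest. With a pseudocount of 0.1 these ranks were 3 and 7, while neither library scaling moved them from 1. In D16S+ against D16S- the difference was 4.92, at rank 7, or at rank 52 with a pseudocount of 0.1.

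Dnmt3l lies at chr10:77504692-77526367 on the plus strand (mm9), and Aire, a transcription regulator best known from the thymus, overlaps its start by 1664 bases on the minus strand. The table gives both genes 1 locus, and whether strand was used in the counting was not given in the sources used here, so the split of fragments between them is uncertain. Aire was listed at 0 in D0 and D3 and had 43.8 FPKM in D12S+, 58.7 in D16S+, 12.2 in iPSCs and 23.0 in mESCs. In D16S- it had 1.18 FPKM. Over the 12 libraries Aire and Dnmt3l had a Pearson r of 0.95, although between D16S+ and iPSCs Aire was lower while Dnmt3l was higher. The part of the overlap in the level of Dnmt3l was not tested. The gene with the pattern most like that of Dnmt3l was Icosl, which encodes a ligand of T cell costimulation and starts 5737 bases past the end of Dnmt3l, with a Pearson r of 0.99 over the 12 libraries. Icosl had 1.55 FPKM in D0, 0.248 in D6T- and 17.1 in D16S+. Low in D6T- and higher in both D0 and D16S+, it followed the dip of Dnmt3l as well as its high levels. Next were Ccdc64 and Lin28a, the latter an RNA-binding protein of pluripotent cells, with r of 0.98 each. All such r share the same 12 libraries and are descriptions.

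**Figure D2:**
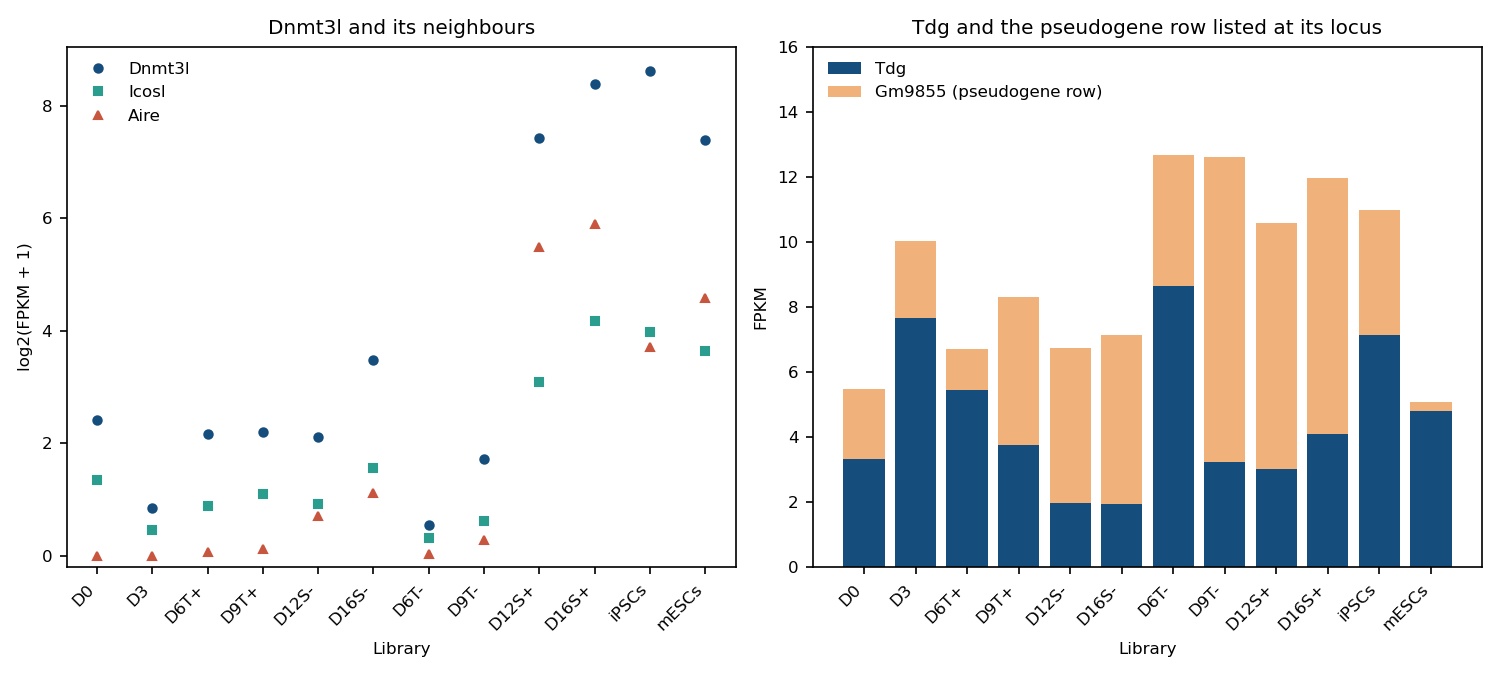
Left, log2(FPKM + 1) of Dnmt3l, its downstream neighbour Icosl and the overlapping Aire by library. Right, FPKM of Tdg and of Gm9855, the pseudogene row at the locus of Tdg, stacked. Icosl follows Dnmt3l in the low libraries where Aire is near 0, and the stacked bars of D6T- and D9T- are alike (12.7 and 12.6 FPKM) although their Tdg parts are not (8.64 and 3.22 FPKM).

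Dnmt3b, a de novo methyltransferase of the early embryo, was lowest in D0, with 0.501 FPKM. It had 0.966 FPKM in D3, 2.03 in D6T-, 4.92 in D9T-, 40.3 in D12S+, 52.2 in D16S+, 156 in iPSCs and 48.5 in mESCs. The unsuccessful route gave 0.914 in D6T+, 2.30 in D9T+, 3.07 in D12S- and 5.69 in D16S-. Each later day was higher than the one before on the successful route, and on the other route from day 6 on, where D16S- ended near the value of D9T-. The difference between iPSCs and D0 was 6.71. This was the only member difference of the 13 comparisons in which the deposited intervals lay apart (0 to 1.55 FPKM in D0, 3.25 to 308 FPKM in iPSCs). Over all 14178 genes, intervals lay apart for 140 in iPSCs over D0. In each other comparison they did so for 55 (D16S- over D0) or fewer. In iPSCs Dnmt3b was also 1.66 above mESCs and 1.56 above D16S+. The most alike genes were Zscan10, a zinc finger factor of embryonic stem cells, Trim71, a ubiquitin ligase and RNA-binding protein of early development, and Camsap3, which binds microtubule minus ends, each with r of 0.99. Dnmt3b lies at chr2:153475186-153513466 on the plus strand, and 7530422B04Rik overlaps it on the minus strand.

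The table gives Dnmt3a, the other de novo enzyme (chr12:3806007-3914443, plus strand), the same locus as Dnmt3aos. Gm10485 and AC159324.1 overlap it on the minus strand. As for Dnmt3l, the use of strand in the counting was not given, so the split of fragments is uncertain. Dnmt3a had a narrow range. Its FPKM was 6.78 in D0, 6.05 in D3, 8.55 in D6T-, 12.2 in D9T-, 18.3 in D12S+, 16.8 in D16S+, 12.8 in iPSCs and 19.2 in mESCs. The other fractions had 6.55 in D6T+, 11.0 in D9T+, 12.5 in D12S- and 11.8 in D16S-. From day 9 on Dnmt3a was thus above D0 and D3 on both routes, and none of the 13 comparisons reached 2-fold for it. The genes most like it were Dock6, a guanine nucleotide exchange factor (r of 0.99), Ptpn6, a tyrosine phosphatase (0.99), and Pald1 (0.98).

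As a share of the summed FPKM of Dnmt3a and Dnmt3b, Dnmt3b was 6.88% in D0, 28.8% in D9T-, 68.8% in D12S+, 75.6% in D16S+, 92.4% in iPSCs and 71.7% in mESCs. On the unsuccessful route it went no further than 32.6%, in D16S-. Dnmt3a was therefore the main catalytic de novo transcript in D0, D3, D6T-, D9T- and the 4 fractions of the unsuccessful route, and Dnmt3b in the remaining 4 libraries. With Dnmt3l included, Dnmt3l held 37.5% of the DNMT3 sum in D0, 4.13% in D6T- and 83.0% in D16S+.

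Among the dioxygenases, Tet1 and Tet3 changed places. Tet1, the main TET of embryonic stem cells (chr10:62267318-62361866, minus strand), had 0.157 FPKM in D0, 0.126 in D3, 0.520 in D6T-, 2.41 in D9T-, 12.7 in D12S+, 23.9 in D16S+, 20.4 in iPSCs and 7.28 in mESCs. In the other fractions it had 0.231 in D6T+, 0.702 in D9T+, 1.37 in D12S- and 0.763 in D16S-. Tet1 was near 0 in fibroblasts, was visible from D9T- on, and in D16S- was at about the level of D9T+. The difference between D16S+ and D16S- was 3.82, at rank 39 of 14178 genes, or 4.80 and rank 74 with a pseudocount of 0.1. Rest, a repressor of neuronal genes, Cdc5l, a splicing factor, and Zbtb8a followed it most closely, with r of 0.99 each.

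Tet3, the TET of the oocyte and of many somatic tissues (chr6:83312367-83391672, minus strand), had 4.38 FPKM in D0, 8.19 in D3, 12.5 in D6T-, 10.3 in D9T-, 4.40 in D12S+, 1.62 in D16S+, 3.50 in iPSCs and 2.78 in mESCs. In the other fractions it had 7.68 in D6T+, 9.09 in D9T+, 6.96 in D12S- and 5.06 in D16S-. It was highest in the middle of the course and lowest in D16S+, and its difference to the step before was -1.07 in D12S+ and -1.04 in D16S+. Tet3 was the only member lower by at least 2-fold in D16S+ than in D16S-, by -1.21. The genes most like it were Thtpa, a thiamine triphosphatase (r of 0.97), Tmem147 (0.96) and Zfp282 (0.96).

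Tet2, a tumour suppressor of blood cells that embryonic stem cells also express (chr3:133126643-133207354, minus strand), was higher earlier than Tet1. It had 1.65 FPKM in D0, 2.87 in D3, 7.70 in D6T-, 9.19 in D9T-, 9.42 in D12S+, 10.3 in D16S+, 19.97 in iPSCs and 6.20 in mESCs. The unsuccessful route gave 2.96 in D6T+, 4.36 in D9T+, 5.42 in D12S- and 2.93 in D16S-. D6T- already stood 1.17 above D3 and 1.14 above D6T+, and the values of D9T-, D12S+ and D16S+ were close to one another. Rngtt, the capping enzyme of messenger RNA (r of 0.96), Tra2b, a splicing regulator (0.96), and Mllt6 (0.95) had the most similar patterns.

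Tet3 made up 70.8% of the summed FPKM of the TET genes in D0, 73.2% in D3, 60.3% in D6T-, 47.0% in D9T-, 16.6% in D12S+ and 4.52% in D16S+. Tet1 went the other way, from 2.54% in D0 to 11.0% in D9T-, 47.9% in D12S+ and 66.7% in D16S+, with 46.5% in iPSCs and 44.8% in mESCs. In D12S- and D16S- Tet3 still held 50.6% and 57.8%. The ratio of Tet1 to Tet3 was 0.0359 in D0, 2.88 in D12S+, 14.7 in D16S+, 5.82 in iPSCs and 0.151 in D16S-. The sum itself differed less, with 6.19 FPKM in D0, 35.9 in D16S+, 43.8 in iPSCs and 16.3 in mESCs.

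**Figure D3:**
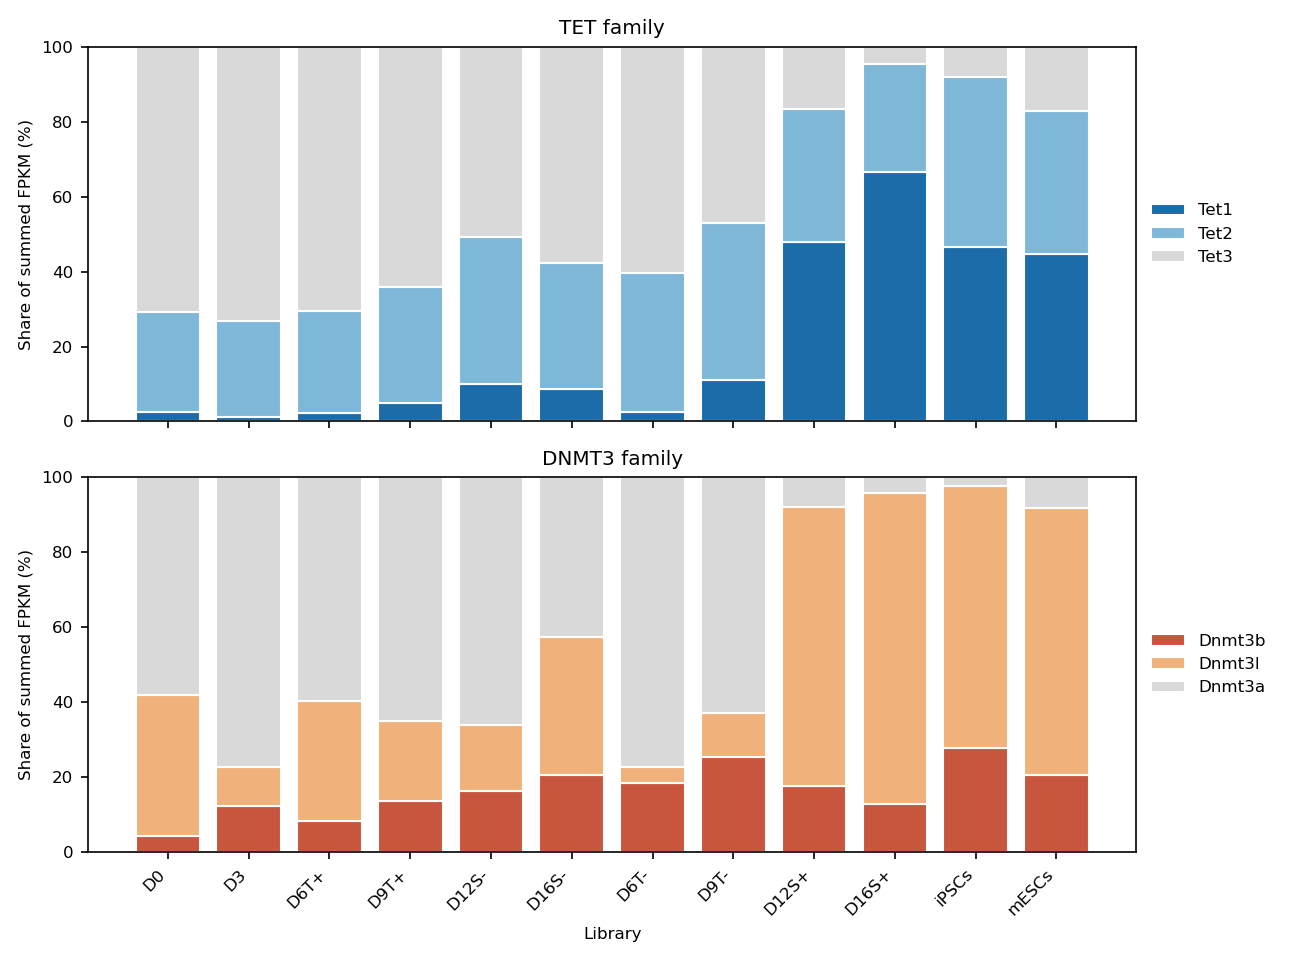
Share of the summed FPKM held by each TET gene (top) and each DNMT3 gene (bottom) in the 12 libraries, in percent. Tet3 and Dnmt3a lead in D0 and in the Thy-1+ fractions, and Tet1 and Dnmt3l lead in D12S+, D16S+ and iPSCs, where Tet1 holds 47.9%, 66.7% and 46.5%.

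The maintenance pair was the most abundant in every library before day 12. Dnmt1 (chr9:20711650-20757317, minus strand) had 67.2 FPKM in D0, 57.7 in D3, 108 in D6T-, 79.4 in D9T-, 94.7 in D12S+, 85.4 in D16S+, 130 in iPSCs and 144 in mESCs. On the unsuccessful route it had 60.8 in D6T+, 56.4 in D9T+, 70.1 in D12S- and 47.4 in D16S-. All values lay within 3.04-fold, and no comparison reached 2-fold. Uhrf1 (chr17:56442744-56462909, plus strand) had 46.6 FPKM in D0, 36.9 in D3, 86.4 in D6T-, 69.1 in D9T-, 130 in D12S+, 125 in D16S+, 205 in iPSCs and 248 in mESCs. It had 37.8 in D6T+, 40.5 in D9T+, 59.0 in D12S- and 33.6 in D16S-. Uhrf1 was below Dnmt1 in D0, D3, D6T-, D9T- and on the whole unsuccessful route and above it in D12S+, D16S+, iPSCs and mESCs, with a ratio of 0.693 in D0, 1.38 in D12S+ and 1.72 in mESCs. D16S- was the lowest library of both genes.

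Dnmt1 and Uhrf1 had an r of 0.95 with each other over the 12 libraries. The list of DNA replication held 20 genes, among them helicase, polymerase, licensing, ligase, ribonucleotide reductase and cyclin E genes. With the median level of this list, r was 0.91 for Dnmt1 and 0.94 for Uhrf1. With 10 genes of mitosis it was 0.83 and 0.84. The summed FPKM of the replication list was 772 in D0, 453 in D16S-, 1478 in D16S+, 2094 in iPSCs and 2759 in mESCs, and was lowest in D16S-, the library with the least Dnmt1 and Uhrf1. By the median of the list, D9T+ was lowest (4.54 on the log2 scale, against 4.62 in D16S-), and so it was by the summed level of the mitosis list (106 against 112 FPKM). The part of replication in the differences of the pair was not tested. Among single genes, Dnmt1 was most like Sf3a1, a splicing factor (r of 0.98), Rbm14 (0.97) and Emg1, a ribosome assembly factor (0.97). Uhrf1 was most like Aarsd1 (0.99), Rad54l, a DNA repair protein (0.99), and Mcm7, a subunit of the replicative helicase (0.99).

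**Figure D4:**
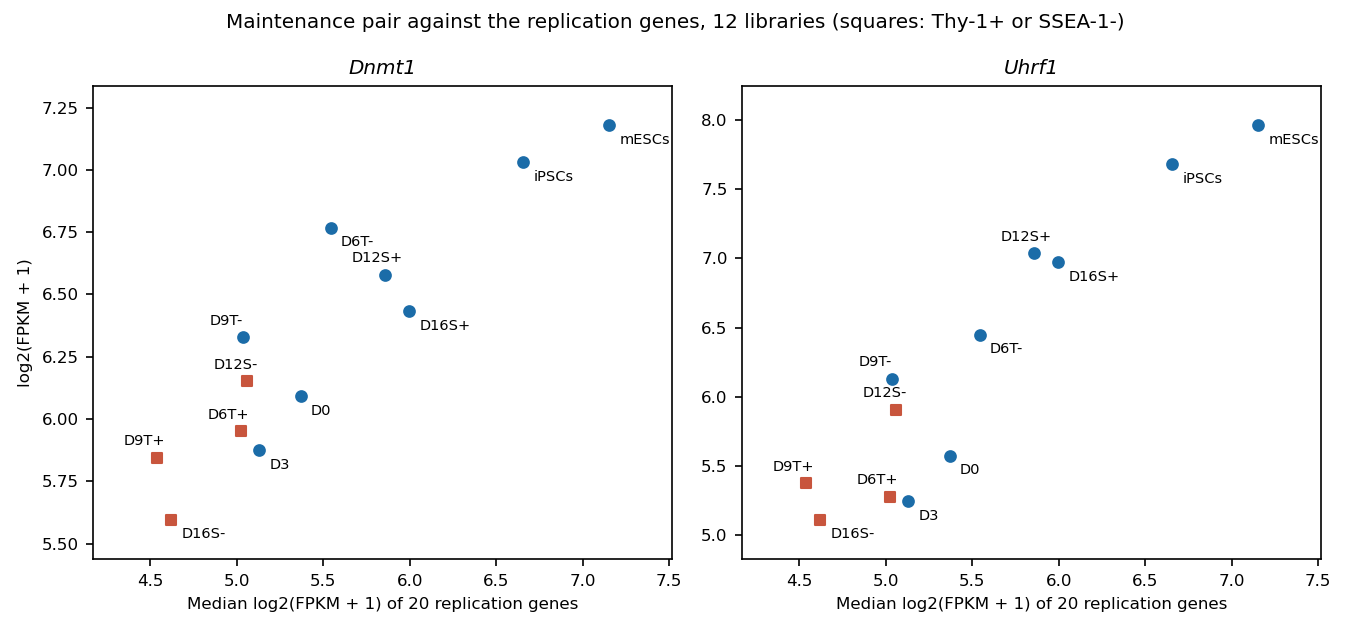
Level of Dnmt1 (left) and Uhrf1 (right) against the median level of 20 replication genes, each as log2(FPKM + 1), with 1 point per library. Squares are the Thy-1+ and SSEA-1- fractions. The points run from D16S- and D9T+ at the lower left to mESCs at the upper right, with r of 0.91 for Dnmt1 and 0.94 for Uhrf1.

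Tdg, the glycosylase that removes the oxidised bases (chr10:82092573-82113544, plus strand), did not follow the others, with r between -0.37 and 0.42 to the remaining members. Its FPKM was 3.33 in D0, 7.67 in D3, 8.64 in D6T-, 3.22 in D9T-, 3.00 in D12S+, 4.08 in D16S+, 7.13 in iPSCs and 4.80 in mESCs. The unsuccessful route had 5.44 in D6T+, 3.75 in D9T+, 1.97 in D12S- and 1.95 in D16S-. Taken as its own row, Tdg was 1.19 lower in D9T- than in D6T-, at rank 82 of 14178 genes from the lowest. However, the table lists Gm9855, a processed pseudogene of Tdg, at the locus of Tdg, while the GENCODE M1 annotation of mm9 has it at chr10:41773919-41775160 on the minus strand. All 1242 bases of the pseudogene aligned to the Tdg messenger RNA with 99.3% identity, and 77.5% of its 50-base words were also in that RNA. The row of Gm9855 had 2.15 FPKM in D0, 2.37 in D3, 4.05 in D6T-, 9.39 in D9T-, 7.59 in D12S+, 7.89 in D16S+, 3.86 in iPSCs and 0.282 in mESCs.

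Summed over both rows, D6T- had 12.7 FPKM and D9T- 12.6, a difference of -0.01, so the lower value of Tdg in D9T- went with a higher value of the pseudogene row. The sum was 5.48 in D0, 10.0 in D3, 10.6 in D12S+, 12.0 in D16S+, 11.0 in iPSCs and 5.08 in mESCs. In the unsuccessful fractions it was 6.72 in D6T+, 8.29 in D9T+, 6.73 in D12S- and 7.15 in D16S-. As a sum, the sorted fractions of the successful route were higher on all 4 days, whereas Tdg by itself was lower in D9T- than in D9T+ by -0.17. How the fragments of this locus were divided between its rows was not tested, and the row of Tdg is therefore uncertain. Reads with several loci were removed, so fragments of the shared stretch may be missing from both rows. The sum need not hold the whole signal of Tdg. Glt8d2, a glycosyltransferase-like gene that overlaps the end of Tdg by 367 bases on the minus strand, had at most 3.45 FPKM. Gspt1, a translation termination factor (r of 0.96), Cacul1 (0.93) and Tomm70a, a mitochondrial import receptor (0.91), were most like the Tdg row.

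Across members, the pair of Dnmt1 and Uhrf1 was close, with the r of 0.95 given above. Dnmt3b, Dnmt3l and Tet1 formed a close group as well. The r was 0.95 between Dnmt3b and Dnmt3l, 0.96 between Dnmt3b and Tet1 and 0.94 between Dnmt3l and Tet1. With the median of the 10 pluripotency markers, r was 0.97 for Dnmt3b, 0.93 for Dnmt3l and 0.95 for Tet1. With the same median it was 0.90 for Dnmt3a, 0.85 for Uhrf1, 0.75 for Tet2 and 0.66 for Dnmt1. Tet3 ran against Dnmt3l, with r of -0.88, and against Tet1, with -0.74. The r of Tet2 was 0.83 with Tet1 and 0.62 with Dnmt3l.

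To see between which libraries each member differed, neighbouring days of the successful route were compared. D3 was unsorted, D6T- and D9T- were sorted on Thy-1, and D12S+ and D16S+ on SSEA-1. From D3 to D6T- and from D9T- to D12S+, the day and the sorting therefore changed together and cannot be told apart. From D0 to D3, Tdg was higher by 1.00 and Dnmt3l lower by -1.58, where 5.76% of all 14178 genes were at least 2-fold higher and 8.67% lower. The value of Tdg sits at the threshold and, summed with Gm9855, was below it. From D3 to D6T-, Tet2 (1.17) and Uhrf1 (1.20) were higher and no member lower, beside 3.96% and 6.62% of all genes. From D6T- to D9T-, Dnmt3l (1.18) and Tet1 (1.17) were higher, where both came from under 1 FPKM, and the Tdg row was lower, beside 5.06% and 1.14%. The step from D9T- to D12S+ held the large differences: Dnmt3l at 5.71, Dnmt3b at 2.80 and Tet1 at 2.00 were higher and Tet3 was lower, that is 3 and 1 of 9 members beside 7.05% and 3.3% of all genes. From D12S+ to D16S+ only Tet3 passed 2-fold, beside 3.59% higher and 5.32% lower, with Dnmt3l at 0.96 and Tet1 at 0.87 just below the threshold. From D16S+ to iPSCs only Dnmt3b did, beside 4.38% and 7.77%.

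Between D0 and iPSCs, 5 of 9 members were at least 2-fold higher and 0 lower, beside 18.7% and 21.6% of all genes, with a member median of 2.11 and a median of 0.03 over all genes. Dnmt3b (6.71), Dnmt3l (6.20), Tet1 (4.21), Tet2 (2.98) and Uhrf1 (2.11) were the 5. Dnmt1 (0.94), Tdg (0.91) and Dnmt3a (0.83) lay just below the threshold and Tet3 was at -0.26. When every library was scaled to the same total FPKM, which moved the median of all genes in this comparison to 0.18, these last but Tet3 passed it as well and 8 of 9 members were higher, beside 22.9% of all genes higher and 17.9% lower in that scaling. From D0 to D16S-, Dnmt3b (2.16) and Dnmt3l (1.05) were higher and no member lower, beside 12.8% and 11.4%. iPSCs stood above mESCs in Dnmt3b (1.66), Tet2 (1.54), Tet1 (1.37) and Dnmt3l (1.22), beside 6.79% of all genes higher and 7.41% lower, while the other 5 members lay between -0.55 and 0.49.

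The sorted fractions of the same day were compared next. They differ by a surface marker, and the later fate of their cells was not followed in these libraries. On day 6, Tet2 (1.14) and Uhrf1 (1.17) were higher in D6T- than in D6T+ and Dnmt3l was lower (-1.63), beside 2.93% of all genes higher and 9.47% lower. On day 9 only Tet1, at 1.00 on the threshold, was higher in D9T-, beside 1.81% and 6.45%. On day 12, Dnmt3l (5.32), Dnmt3b (3.34), Tet1 (2.53) and Uhrf1 (1.13) were higher in D12S+, beside 4.79% and 3.03%. On day 16 Dnmt3l (4.92), Tet1 (3.82), Dnmt3b (2.99), Uhrf1 (1.86) and Tet2 (1.53) were higher in D16S+ and Tet3 was lower, beside 11.8% and 15.2%. The median over the members on day 16 was 1.53, against -0.02 over all genes. Dnmt1, Dnmt3a, Dnmt3b, Tet1, Tet2 and Uhrf1 were higher by any amount in the successful fraction on all 4 days. The smallest of these differences was 0.14, for Dnmt3a on day 9. The share of all genes with this pattern was not computed, so the count has no background.

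**Figure D5:**
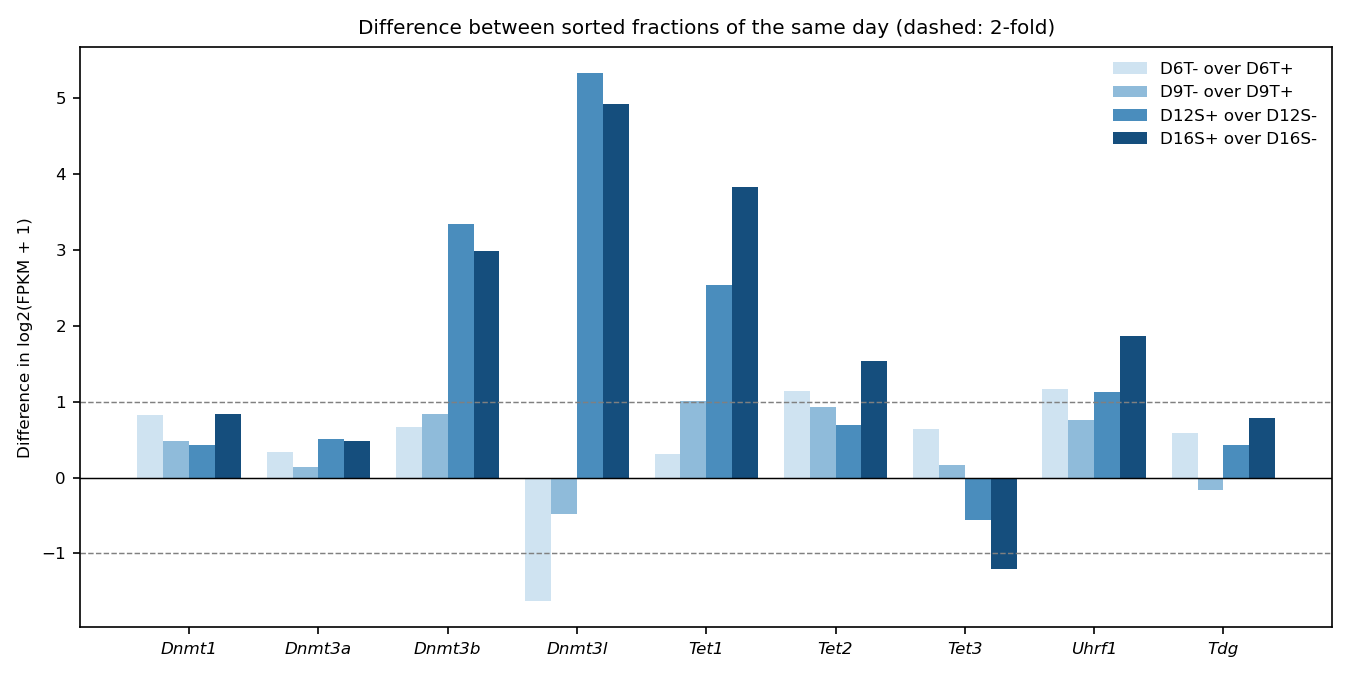
Difference in log2(FPKM + 1) between the successful and the unsuccessful fraction of the same day for each member, 1 bar per day and dashed lines at 2-fold. Dnmt3l lies below 0 on days 6 and 9 and above 4 on days 12 and 16, and Tet3 goes from 0.64 on day 6 to -1.21 on day 16.

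The same markers of other cells moved with these fractions. The 10 fibroblast markers had a median difference of -2.66 on day 6 and -3.19 on day 16, with 9 and 7 of 10 at least 2-fold lower in the successful fraction. The shares of all genes lower were 9.47% and 15.2%. One of the 10 is Thy1, the gene of the marker sorted on day 6, with 3.24 FPKM in D6T- and 477 in D6T+. Its lower value in D6T- was thus set by the sorting. The summed level of 5 epithelial markers was 827 FPKM in D16S+ and 1405 in D16S-, but the list was split. Krt8 (149 and 543 FPKM) and Krt18 (259 and 664) were lower in D16S+. Cdh1 (130 and 44.6), Epcam (150 and 74.6) and Cldn6 (138 and 78.2) were higher there, and the median difference was 0.82. Of 8 leukocyte markers 3 to 6 were under 1 FPKM in each library, and the summed level ranged from 22.8 in D6T+ to 194 in D16S-, with Ptprc and Emr1, which define the class, at 0.425 FPKM or less throughout. Of the 5 leukocyte markers that passed the filter, 3 were at least 2-fold higher in D16S- than in D0 and 2 lower. The shares of all genes were 12.8% and 11.4%. Higher were Cd68 at 115 against 9.05 FPKM, Laptm5 at 57.3 against 1.37 and Csf1r at 19.9 against 1.55. Lower were Lyz2 at 0.509 against 9.47 FPKM and Tyrobp at 0.897 against 3.38. In D16S+ Cd68, Laptm5 and Csf1r had 62.0, 19.0 and 6.63 FPKM. The 4 endothelial markers summed to between 9.40 FPKM in D6T+ and 62.7 in mESCs. Their part in the member differences was not tested.

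The other genes of the pathway were described in the same comparisons, each list to be read beside the shares of all genes: 11.8% higher and 15.2% lower in D16S+ over D16S-, 18.7% and 21.6% in iPSCs over D0, and 5.76% and 8.67% in D3 over D0. Of 14 partners of the enzymes 13 passed the filter, and 9 of these were at least 2-fold higher in D16S+ than in D16S- and 0 lower, with a median of 1.55. Dppa3, which shields the maternal genome from oxidation and hinders UHRF1, had 85.0 FPKM against 0.970, Prdm14, a repressor of Dnmt3b and Dnmt3l in embryonic stem cells, had 9.35 against 0.207, and Hells, a remodeller needed for methylation, had 8.05 against 1.25. Dppa3 was highest in D16S+ and had 17.9 FPKM in iPSCs and 5.53 in mESCs. From D0 to iPSCs 8 partners were higher and 1 was lower, Uhrf2, a relative of Uhrf1, with 21.2 and 5.73 FPKM. Among the higher ones were Zfp57, which keeps imprints methylated, with 14.7 and 270 FPKM, and Cdca7, a partner of Hells, with 6.72 and 55.1. From D0 to D3 the count was 0 in both directions.

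Of 17 genes of base excision and deamination 16 passed the filter, of which 6 were higher and 2 lower in D16S+ than in D16S-, with a median of 0.60. Ung, the uracil glycosylase, had 61.8 FPKM against 8.40, Apobec3 had 76.4 against 20.9, while Gadd45g, a stress protein, had 27.3 against 122 and Neil1, a glycosylase, 6.12 against 15.6. Between D0 and iPSCs 5 were higher, Ung (5.82 and 86.5 FPKM), Parp1 (51.8 and 302), Gadd45b (12.1 and 70.3), Apex1 (75.5 and 228) and Apobec3, and 1 was lower, Gadd45g. From D0 to D3, 0 were higher and 1, Apobec2, was lower.

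Among 8 readers of methylated DNA, Mbd4, a glycosylase with a methyl-binding domain, was higher in D16S+ (2.90 FPKM against 0.867 in D16S-) and Zbtb4 lower (2.42 against 12.5). From D0 to iPSCs, 1 was higher and 3 were lower, with Zbtb4 at 9.19 and 0.637 FPKM, Mbd2 at 33.8 and 12.9 and Mbd1 at 23.7 and 10.3. From D0 to D3 Zbtb38 alone was higher, with 6.15 and 14.8 FPKM. The median of the readers was -0.67 in D16S+ against D16S- and -0.50 between D0 and iPSCs.

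Of 7 genes that recruit the TET enzymes or set their cofactors, 0 differed by at least 2-fold between D16S+ and D16S-, and 1 was higher in iPSCs than in D0, Ogt, a sugar transferase that binds TET proteins, with 3.76 and 10.2 FPKM. Cxxc5, which binds unmethylated CG, had 26.4 FPKM in D0 and 5.73 in D3. Of 6 genes that make or use the methyl donor 5 passed the filter, and 1, Gnmt, was higher and 1 lower in both comparisons. The lower one was Nnmt, which spends the donor on nicotinamide, with 95.1 FPKM in D0, 41.4 in D3, 1.92 in D16S+, 18.4 in D16S- and 0.578 in iPSCs. Nnmt was thus high in fibroblasts and lower in both fractions of day 16. Replication genes were higher in 16 of 20 cases in D16S+ than in D16S- (median 1.69) and in 12 of 20 from D0 to iPSCs. All 10 mitosis genes were higher in D16S+ than in D16S- (median 2.23), and 3 of 10 from D0 to iPSCs. Mcm5, of the replicative helicase, had 127 FPKM in D16S+ and 27.9 in D16S-, and Ccnb1, the mitotic cyclin, had 71.5 and 7.50. From D0 to D3 the count was 0 in both directions for either list.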

How the data were processed

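RNA of 12 libraries, 1 per condition, was made into TruSeq libraries, mapped by the authors to mm9 with STAR, and summarised with cuffdiff. Reads with several loci or too many mismatches were removed. The labels name a stranded kit, the methods one without that word. Versions, annotation and library scaling are not given in the sources used here. The deposited values are FPKM with an interval that cuffdiff models from 1 library. Columns were matched to the labels by day and sign of the sorting marker. All 108 member values had status OK.

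Differences of log2(FPKM + 1) were computed with Python 3.11.15, pandas 2.3.3 and numpy 2.4.6 over 14178 genes with at least 1 FPKM in a library, and the functions were tested on simulated data. Named were all 9 members, for each the 3 genes with the highest r among those with at least 5 FPKM somewhere and a log2 range of at least 1, and list genes at least 2-fold apart in D3 over D0, D16S+ over D16S- or iPSCs over D0, at most 4 per list and comparison. Icosl met this rule. Aire, Glt8d2, Gm9855, Uhrf2, Neil1 and single leukocyte and epithelial markers, and Apobec3 and Gadd45g in iPSCs over D0, were named after their values were seen. Alternatives were a pseudocount of 0.1, no filter, scaling to the same total FPKM or by the median of ratios, and a fold of 4. One gene was left out of its list and is not reported here. Members and lists were chosen with earlier results of these data known. Gene positions are from GENCODE M1 (mm9) and promoters from RefSeq (GRCm38.p6).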

Additional observations from a re-analysis of the deposited data

Results flagged for a closer look

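For Dnmt3l, the difference between the successful and the unsuccessful fraction had opposite signs on the Thy-1 days (6 and 9) and on the SSEA-1 days (12 and 16). It was -1.63 and -0.48 on the former and 5.32 and 4.92 on the latter, and the means of the 2 pairs were 6.17 apart. Tet3 had opposite signs as well, with 0.64 and 0.16 against -0.56 and -1.21, and means that were -1.29 apart. Neither was tested, since each fraction has 1 library. The sorting marker and the day differ together and cannot be told apart.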

How the results depend on the processing

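Direction at or past 2-fold was kept by every member difference under a pseudocount of 0.1 and both scalings. In size, 13 of 117 differences moved by over 1.5-fold with a pseudocount of 0.1 and 0 with either scaling. The 13 were 8 of Tet1, 3 of Dnmt3l and 2 of Dnmt3b, all further from 0, such as Tet1 (from 4.21 to 6.31) and Dnmt3b (from 6.71 to 8.02) in iPSCs over D0 and Dnmt3l in D6T- over D6T+ (from -1.63 to -2.69). Counts of members that moved by more than 1.5 times were the following. With a pseudocount of 0.1 the count was 2 in place of 1 for iPSCs over D16S+ and 3 in place of 1 for D9T- over D9T+. With the same total FPKM it was 2 for D16S+ over D12S+ (from 1), 2 for D9T- over D9T+ (from 1) and 8 for iPSCs over D0 (from 5). With the median of ratios it was 0 for D9T- over D9T+, where Tet1 at 1.00 fell below the threshold. With a fold of 4 it was 3 for D16S+ over D16S- (from 6). With Tdg summed with Gm9855, chosen after seeing the data, it was 1 for D3 over D0 (from 2). The Tdg difference was then -0.11 in place of 0.68 for iPSCs over D16S+, 0.55 in place of -0.17 for D9T- over D9T+ and 0.33 in place of -0.55 for D16S- over D0.

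Scaling to the same total moved the median of all genes to 0.12 for D3 over D0, 0.19 for D16S- over D0, 0.18 for iPSCs over D0 and -0.14 for iPSCs over D16S+. The share of higher genes among all genes at least 2-fold apart then went from 39.9% to 56.5%, from 52.9% to 68.2%, from 46.4% to 56.2% and from 36.1% to 22.9% in that order. Small differences of Dnmt1 and Dnmt3a in D3 over D0 and of Uhrf1 in D16S+ over D12S+ changed sign. Without the filter the shares of all genes past 2-fold moved in all 13 comparisons, since genes at or near 0 joined the denominator. All 36 r between members moved by less than 0.2 with a pseudocount of 0.1. Leaving out a replicate could not be done with 1 library per condition. No paired analysis was possible because each group has 1 library. Absolute depth is unknown, and Tet1, Dnmt3b and Dnmt3l under 1 FPKM rest on few fragments.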
